A study of Mus musculus with 7 samples.

Results

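The genes described here are 38 genes of the lysosome, the acid compartment in which a cell digests what it has taken up: 11 soluble proteases and a thiol reductase that assists them, 6 lipid and sugar hydrolases or their cofactors, 8 membrane and sterol-handling proteins, 3 transcription factors and 9 subunits of the proton pump. They were chosen by name, with earlier results of these data known, and all 38 were among the 48440 genes listed for each library. RNA had been sequenced from CD11b+ migratory dendritic cells (DCs) of the mediastinal lymph node, in B6 mice. Infants of 2 to 3 weeks gave 4 libraries and adults of 7 weeks gave 3. Every animal, infant and adult alike, had been given house dust mite allergen (HDM) with LPS through the nose 24 hours earlier, so no group was unexposed. The cells had been sorted as CD11c+ and CD11b+ with high MHC class II, and without B220, CD64 or CD103. Whether 1 animal or a pool stood behind each library is not stated, so every p-value rests on the spread of libraries alone, which may be partly technical.

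DCs digest inhaled protein in endosomes and lysosomes and load the fragments onto MHC class II molecules. Cathepsins and asparaginyl endopeptidase cut the antigen and also the invariant chain that blocks the MHC groove, and maturing DCs acidify these compartments with a vacuolar proton pump, the V-ATPase. The transcription factors Tfeb, Tfe3 and Mitf drive many lysosomal genes through a short promoter sequence, the CLEAR element, built around the letters CACGTG. In bulk RNA such as this, fewer cells of a type and less RNA per cell cannot be told apart.

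The CACGTG core is shown first because it links 3 of the genes, the transcription factors, to the promoters of the others. RefSeq promoter sequences (GRCm38.p6, the same build as mm10) were at hand for 30 of the 38 genes and were searched over the 250 bases before each start site. The core reads the same on both strands. It lay in the promoters of 12 of the 30 genes (40.0%), namely Atp6v0b, Atp6v1a, Ctsa, Ctsd, Ctsf, Ctsl, Gla, Glb1, Ifi30, Lamp1, Lgmn and Mcoln1, and of 6.86% of the 27025 genes with such a promoter. The longer form TCACGTGA, also the same on both strands, contains the core and lay in 6 of the 30 (20.0%) and in 0.907% of all genes. A match is a description of these letters and not a measured binding site. The 6 stretches below run 5′ to 3′ on the gene's own strand with each core in capitals, and were picked to show a membrane protein and a channel with several copies, 2 proteins of antigen digestion, and 2 pump subunits that differed between libraries.
Lamp1 (chr8:13159088-13159160, plus strand): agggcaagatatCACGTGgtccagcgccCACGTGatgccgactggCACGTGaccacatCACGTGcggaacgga
Mcoln1 (chr8:3500436-3500491, plus strand): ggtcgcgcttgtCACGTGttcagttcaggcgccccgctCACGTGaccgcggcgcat
Ctsd (chr7:142387908-142387937, minus strand): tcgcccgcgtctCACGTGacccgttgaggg
Ifi30 (chr8:70766842-70766871, minus strand): atccaaaaacttCACGTGaccagacatgct
Atp6v0b (chr4:117887330-117887377, minus strand): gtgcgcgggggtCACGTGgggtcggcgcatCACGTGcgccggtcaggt
Atp6v1a (chr16:44139373-44139402, minus strand): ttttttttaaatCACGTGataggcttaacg
Lamp1 held 4 copies within its last 73 bases before the start site, and Mcoln1 and Atp6v0b held 2 each in the stretches shown. Ctsd held another core, 245 bases before its start site, outside the stretch shown. Start sites are those of RefSeq, and for some genes, such as Ctsd and Atp6v1a, the counted gene span began further upstream.

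The libraries held 18022302 to 20377361 exon reads in infants and 20064331 to 22316484 in adults, and 12261 genes were measured well enough to test. Infant 2 stood apart: on the first principal component, which took 36.5% of the variance, it lay at 65.7 while the other 6 libraries lay between -22.3 and 8.59. Malat1, a nuclear RNA, stood there at 13539 reads per 1000000 library-scaled reads (CPM), with the remaining infants at 3108 to 3728 CPM and the adults at 3058 to 4411 CPM. Neat1, another nuclear RNA, was at 83.1 CPM in infant 2 and 84.1 to 107 CPM in the other libraries. For many of the genes described, the value without infant 2 stands beside the value with it. All 11 listed markers of the sorted DCs were measured well enough to test. Among them Ccr7, which guides DCs to the node, was at 4599 to 5218 CPM in infants and 5518 to 6392 CPM in adults. Zbtb46, a DC transcription factor, was at 163 to 201 CPM in infants and 217 to 242 CPM in adults. The markers themselves leaned lower in infants: their median log2 fold change, infant over adult, was -0.24. Of the 11, 0 passed an adjusted p of 0.05 by edgeR or by DESeq2. Adults lay wholly above infants for Ccr7, Zbtb46 and Flt3, as for 7.58% of all tested genes. The 3 markers with log2 fold changes above 0 were H2-Ab1, Cd74 and Fscn1. Itgam, which encodes CD11b, was low, at 9.83 to 21.2 CPM in infants and 15.7 to 17.5 CPM in adults. Macrophage markers were present despite the CD64 gate: 8 of 8 were detected, and summed to 554 to 1541 CPM in infants and 591 to 1196 CPM in adults. Some traits moved with age or differed between libraries, and their part in the results was not tested. Of the 14 tested immediate-early and heat-shock genes, 11 had an unadjusted p under 0.05, all lower in infants, and the listed 15 summed to 1933 to 3638 CPM in infants and 5816 to 6388 CPM in adults. Xist, which marks female cells, was at 6.67 to 15.2 CPM in infants and at 0, 24.6 and 0 CPM in adults 1 to 3. Sex was thus not balanced between infants and adults. This bears on all 38 genes, among them the X-linked Tfe3, Lamp2 and Gla. The 7 listed alveolar macrophage markers summed to 69.3 to 103 CPM in infants and 154 to 210 CPM in adults. Of these, Siglecf and Car4 had only 0 to 6 and 0 to 4 exon reads per library. Marco was at 2.32 to 7.68 CPM in infants and 8.34 to 27.1 CPM in adults (DESeq2 adjusted p = 0.00642, edgeR adjusted p = 0.236). Of the 5 tested, 1 had a log2 fold change above 0: Pparg (0.39), at 2.34 to 3.46 CPM in infants and 1.91 to 2.56 CPM in adults. Adgre1, which encodes the macrophage marker F4/80, was also higher in infants, at 65.9 to 79.5 CPM, with 48.9 to 59.3 CPM in adults (DESeq2 adjusted p = 0.0434, edgeR adjusted p = 0.246). The name of the file of adult 3 holds a second library name of another form than its title, and what that name refers to is not stated. Without that library the median log2 fold change of the 38 genes, given below as 0.04, was 0.12.

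Lysosomal transcripts were a steady and sizeable part of the RNA of these cells. By the authors' TPM, which share out 1000000 units per library in proportion to transcript number, the 38 genes together took 19556 to 21808 TPM in infants and 19143 to 21688 TPM in adults, so about 2% of transcripts in every library. The load was uneven: the 8 most abundant of them made up 77.0% to 78.7% of the summed level per length (RPKM) in infants and 78.4% to 78.9% in adults. By RPKM, which can be compared between genes, Ctsz and Ctss were the most abundant, with means over the 7 libraries of 1718 and 1526 RPKM, and their ranges overlapped. Lamp1 (801 RPKM) and Ctsh (726 RPKM) came next, with overlapping ranges, followed by Ifi30 (485 RPKM), Psap (385 RPKM) and Ctsb (294 RPKM), again with overlap. At the other end, Npc1, Ctsf, Ctse and Gla had means of 0.931, 0.937, 1.43 and 1.78 RPKM, and Mitf had 0.135 RPKM. Mitf and Ctsf had 8 to 26 and 22 to 51 exon reads per library, and all 38 genes passed that limit.

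**Figure D1:**
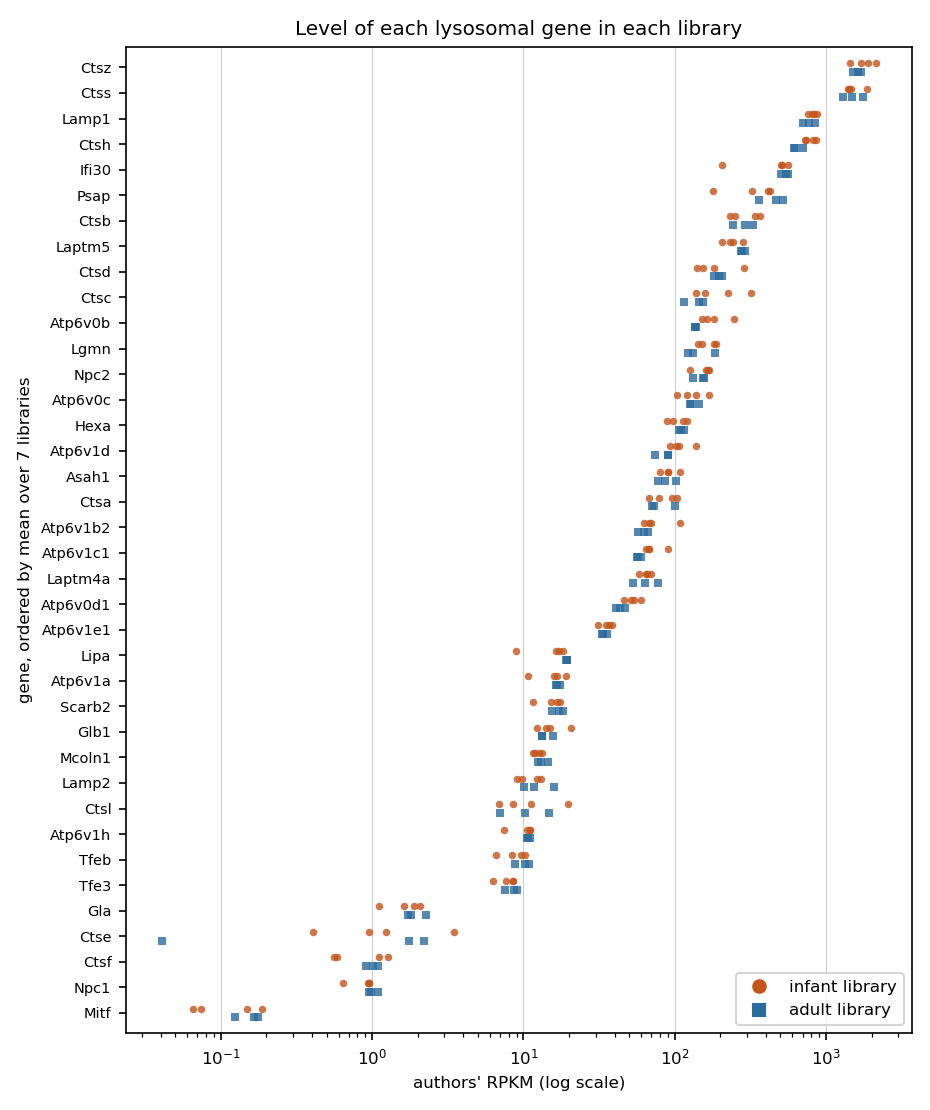
Level of each of the 38 genes in the authors' RPKM (horizontal, log scale), with 1 point per infant library (circles) and per adult library (squares) and genes ordered by their mean over the 7 libraries. Levels ran from 0.135 RPKM for Mitf to 1718 RPKM for Ctsz, and for most genes the infant and adult points overlapped; the lone low square is Ctse in adult 2, at 3 reads.

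The comparison asked how this machinery differed with age in DCs that had met the same allergen and LPS. None of the 38 genes passed an adjusted p of 0.05 by edgeR's quasi-likelihood test, where 2 of the 12261 tested genes did (0.0163%), and none passed by DESeq2, where 1.47% of genes did. At an unadjusted p under 0.05 there were 5 of the 38 by edgeR (13.2%), near the 13.3% of all tested genes. By DESeq2 there were 6 of the 38, against 10.8% of 17748 genes. That set was taken without the filter on low counts, so it is unlike the 38. All 5 by edgeR had higher means in infants, namely Ctsc and the pump subunits Atp6v0b, Atp6v0d1, Atp6v1c1 and Atp6v1d. That was the direction of 6.53% of all tested genes at that p, against 6.73% in the other. The log2 fold changes, infant over adult, ran from -0.41 to 0.65 with a median of 0.04, beside a median of 0.0016 for all tested genes. Of the 38, 22 lay above 0 (57.9%), against 50.2% of all tested genes, the share to set beside the sign counts below that use all 7 libraries. The fold changes of the 38 had a median size of 0.17, against 0.23 for all tested genes.

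The data bound these differences fairly tightly. For 35 of the 38 genes the 95% interval of the fold change lay within a 2-fold difference either way, as it did for 69.4% of all tested genes. The 3 whose intervals reached further were Ctsc (0.01 to 1.29 on the log2 scale), Ctse (-1.79 to 2.23) and Mitf (-1.48 to 0.78). These intervals are per gene and not adjusted for the number of genes, and an interval that spans 0 does not show that the groups were alike. Infants lay wholly above adults for Atp6v0b and Atp6v1c1, 2 of the 38 genes, as for 7.97% of all tested genes, and adults wholly above infants for Lipa alone, as for 7.58%.

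**Figure D2:**
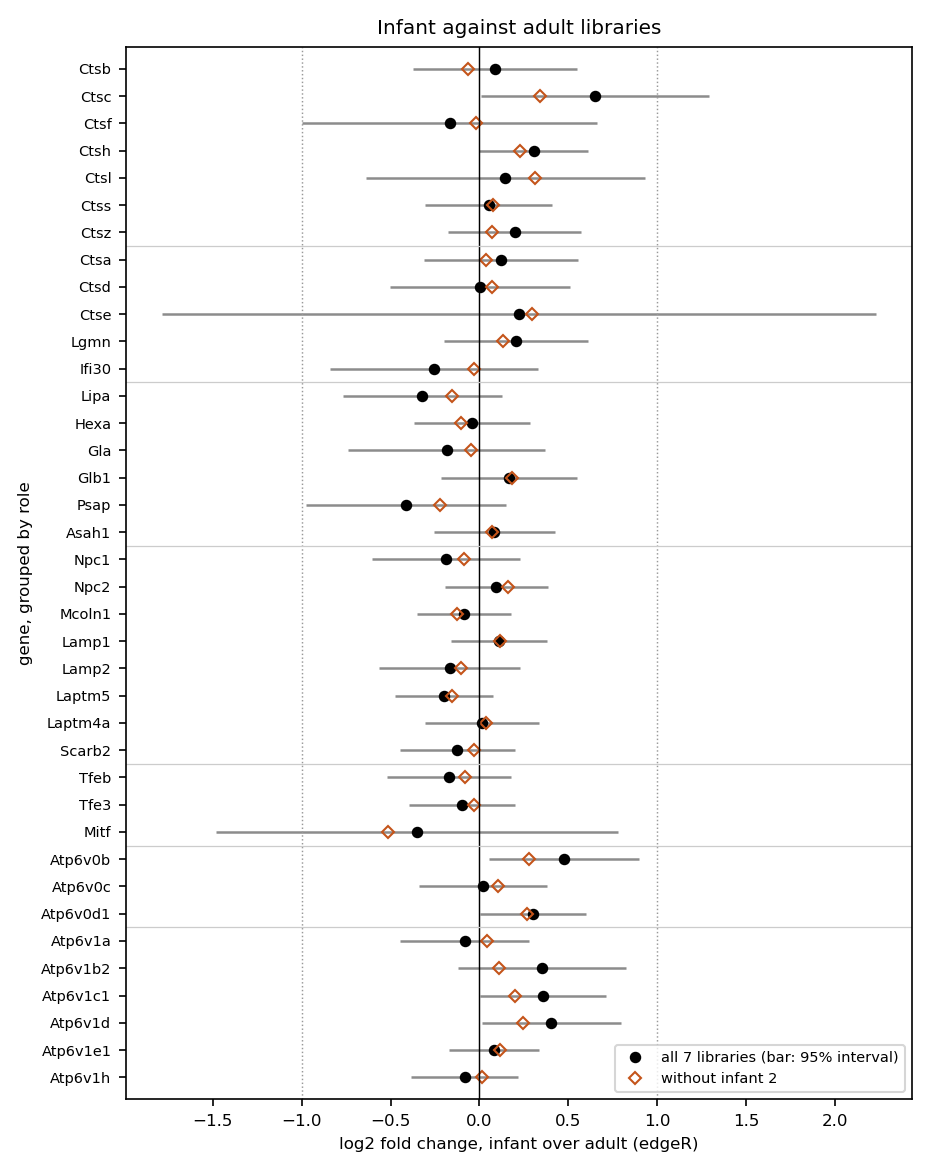
Log2 fold change of each gene, infant over adult, by edgeR (horizontal), with genes grouped by role down the page. Filled points use all 7 libraries with their 95% interval, open diamonds leave out infant 2, and dotted lines mark a 2-fold difference; the values ran from -0.41 for Psap to 0.65 for Ctsc, and Ctsc was at 0.34 without infant 2.

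The cysteine cathepsins, papain-like proteases that trim antigen and the invariant chain, gave 6 of 7 fold changes above 0, with a median of 0.15, or 5 of 7 and 0.07 without infant 2. Ctsc, or dipeptidyl peptidase 1, which activates the serine proteases of granules, lies on the plus strand of chromosome 7 from 88278085 to 88310888 (mm10). It had 831, 2096, 1413 and 969 CPM in infants 1 to 4, against 902, 703 and 934 CPM in adults 1 to 3. Infants 2 and 3 were far above every adult, infant 1 lay between the adults, and so the groups overlapped. Its log2 fold change was 0.65 (SE 0.29, edgeR adjusted p = 0.370) with infant 2 and 0.34 without it. Ctsh, an aminopeptidase, had 2829, 3699, 3035 and 3279 CPM in infants against 2829, 2499 and 2465 CPM in adults. The highest adult met the lowest infant, and the log2 fold change was 0.31 (SE 0.14, edgeR adjusted p = 0.376).

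Ctss, the main protease of the last step of invariant chain removal in DCs, had 2047, 2147, 2756 and 2039 CPM in infants against 2155, 1842 and 2503 CPM in adults. The groups overlapped over most of their ranges, and the log2 fold change was 0.05 (SE 0.16). Ctsz, a carboxypeptidase, had 2157, 3512, 2961 and 2592 CPM in infants against 2324, 2444 and 2573 CPM in adults. Its log2 fold change was 0.20 (SE 0.17), and 0.07 without infant 2. Ctsb had a log2 fold change of 0.09 (SE 0.21) with means of 1530 ± 402 CPM in infants (SD, n = 4) and 1440 ± 216 CPM in adults (SD, n = 3), and its sign turned without infant 2 (-0.06) and without adult 2 (-0.02). Ctsl, which processes the invariant chain in thymic epithelium and macrophages, was the most uneven of the group, at 22.9, 15.5, 41.9 and 17.8 CPM in infants against 21.4, 14.5 and 30.6 CPM in adults. Ctsf, another cathepsin known from macrophages, had 1.25 to 2.66 CPM in infants and 1.89 to 2.29 CPM in adults.

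Among the other proteases, Ctsd, the aspartic protease cathepsin D, had 440.0, 409, 733 and 351 CPM in infants against 494, 449 and 505 CPM in adults. Infant 3 was the highest and infant 4 the lowest of all 7 libraries, and the log2 fold change was 0.0018 (SE 0.23). Of its exon reads 68.0% mapped to more than 1 place, and its sign turned with unique reads alone (-0.03) and under most other settings, so no direction is given for it. Lgmn, the asparaginyl endopeptidase, had a log2 fold change of 0.20 (SE 0.18), with 414 ± 69.3 CPM in infants (SD, n = 4) and 359.7 ± 81.2 CPM in adults (SD, n = 3), and it was 0.13 without infant 2, 0.09 without adult 2 and 0.40 without adult 3. Ctsa, a carboxypeptidase that also shields Glb1, had one of 0.12 (SE 0.20), or 0.03 without infant 2, 0.02 without adult 2 and 0.30 without adult 3. Ctse, cathepsin E, had 28, 84, 209 and 60 exon reads in infants against 132, 3 and 149 reads in adults. Adult 2, at 3 reads, lay far below the rest, and 48.2% of the reads of this gene in infants and 45.1% in adults were intronic.

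Ifi30, or GILT, is the thiol reductase that opens disulfide bonds of antigens before they are cut. Its gene spans 70762774 to 70766663 of chromosome 8, minus strand (mm10). It had 563, 229, 546 and 524 CPM in infants against 527, 558 and 582 CPM in adults. Infant 2 was far below every other library, and the other 3 infants lay within or next to the adult range. The log2 fold change was -0.25 (SE 0.26, edgeR adjusted p = 0.666) with infant 2 and -0.03 without it.

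The lipid and sugar hydrolases and their cofactors gave 2 of 6 fold changes above 0 and a median of -0.11, or -0.08 without infant 2. Psap, the precursor of the saposins that present sphingolipids to their hydrolases and lipids to CD1 molecules, had 1198, 556, 1230 and 944 CPM in infants against 1375, 1041 and 1509 CPM in adults. Infants 2 and 4 lay below every adult. Its log2 fold change of -0.41 (SE 0.25, edgeR adjusted p = 0.469) was the lowest of the 38, and it was -0.22 without infant 2. Lipa, the acid lipase that frees cholesterol from its esters, had 52.3, 30.3, 59.3 and 51.9 CPM in infants against 61.6, 60.3 and 59.6 CPM in adults. The adults had an SD of 1.03 CPM (n = 3) and were all above the infants, infant 3 by a narrow margin, and the log2 fold change was -0.32 (SE 0.20, edgeR adjusted p = 0.477), or -0.15 without infant 2.

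Hexa, a subunit of the hexosaminidase that breaks down gangliosides, gave -0.04 on the log2 scale (SE 0.15), and Asah1, the acid ceramidase, one of 0.08 (SE 0.15). Glb1, the beta-galactosidase, was highest in infant 1, at 51.3 CPM, and the remaining infants (32.0 to 38.5 CPM) lay around the adults (33.4 to 40.0 CPM). Tmppe overlaps Glb1 on the same strand, so reads there could have been split between them. Gla, the alpha-galactosidase, had 78 to 134 exon reads in infants and 133 to 158 in adults, and a log2 fold change of -0.18 (SE 0.25), or -0.05 without infant 2. Intronic reads made up 8.81% of its reads in infants and 23.8% in adults.

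Of the membrane and sterol-handling proteins, 3 of 8 had fold changes above 0, with a median of -0.11, or -0.06 without infant 2. Lamp1, the most abundant glycoprotein of the lysosomal membrane and the gene with 4 CACGTG cores above, was the steadiest of the abundant genes in infants, at 2296, 2320, 2359 and 2459 CPM, against 2188, 1987 and 2388 CPM in adults. Its log2 fold change was 0.11 (SE 0.12), with 38.8% of its reads mapping to more than 1 place. Lamp2, its relative with a role in chaperone-mediated autophagy, had 98.7 to 129 CPM in infants and 101 to 161 CPM in adults. Laptm5, a membrane protein of blood cells that limits antigen receptors on lymphocytes, had 1098, 876, 1002 and 936 CPM in infants against 1131, 1156 and 1087 CPM in adults. Only infant 1 reached the adult range, and the log2 fold change was -0.20 (SE 0.12, edgeR adjusted p = 0.473).

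Npc2, the soluble carrier that hands cholesterol to Npc1, had 563, 467, 569.8 and 569.9 CPM in infants against 538, 452 and 533 CPM in adults. Infants 1, 3 and 4 were above every adult and infant 2 was not, and the log2 fold change was 0.10 (SE 0.13), or 0.16 without infant 2. Npc1 itself had 7.83 to 11.1 CPM in infants and 10.7 to 12.4 CPM in adults, but 3110002H16Rik overlaps it on the other strand with 7583 reads to its own 1505, and no source used here states if counting kept strands apart. Mcoln1, the lysosomal calcium channel, had a log2 fold change of -0.09 (SE 0.12). Scarb2, the receptor that delivers glucocerebrosidase, had one of -0.12 (SE 0.15), or -0.03 without infant 2, and Laptm4a one of 0.02 (SE 0.14).

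The 3 transcription factors that drive lysosomal genes all had fold changes below 0, none of which passed. Tfeb had 56.2, 42.2, 63.5 and 50.3 CPM in infants against 62.2, 64.3 and 52.8 CPM in adults, a log2 fold change of -0.17 (SE 0.16, edgeR adjusted p = 0.620). Tfe3 had 73.4, 65.9, 85.6 and 83.0 CPM in infants against 89.2, 84.1 and 73.9 CPM in adults, a log2 fold change of -0.10 (SE 0.13). The groups overlapped for both, and without infant 2 the log2 fold changes were -0.08 and -0.03. Per length the levels of Tfeb and Tfe3 overlapped, with means over the 7 libraries of 9.26 and 8.04 RPKM, while Mitf, known best from pigment cells, osteoclasts and mast cells, had 8 to 22 exon reads in infants and 18 to 26 in adults, with 73.7% and 69.6% of its reads in introns. The 12 genes with a CACGTG core had a median log2 fold change of 0.06, and the 18 genes searched without one had -0.01. With the longer TCACGTGA the order was the other way, at -0.09 for the 6 genes that hold it and 0.04 for the 24 that do not.

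The V-ATPase gave 7 of 9 fold changes above 0, where 50.2% of all tested genes lay, with a median of 0.30. It held 4 of the 5 genes with an unadjusted p under 0.05, which 13.3% of all tested genes had. Without infant 2 all 9 lay above 0, as did 23 of all 38 genes, but Atp6v1h and Atp6v1a were only at 0.012 and 0.041. The median of the 9 was then 0.11, and Atp6v0b alone kept an unadjusted p under 0.05. Without infant 3, adult 1, adult 2 or adult 3 there were 0 such subunits. The shares of all tested genes above 0, or at that p, without a library are not given here. The log2 fold changes without infant 3 were 0.48 for Atp6v0b, 0.24 for Atp6v0d1, 0.39 for Atp6v1c1 and 0.42 for Atp6v1d. The pump has a membrane sector (V0), which carries the protons, and a cytosolic sector (V1), which burns ATP to turn it. In V0, Atp6v0b, the c'' ring subunit (chromosome 4, 117884326 to 117887333, minus strand, mm10), had 321, 571, 405 and 355 CPM in infants against 298, 295 and 299.6 CPM in adults. Every infant lay above every adult, and the adults had an SD of 2.38 CPM (n = 3). The log2 fold change was 0.47 (SE 0.19, edgeR adjusted p = 0.339), and 0.28 without infant 2.

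Atp6v0d1, which joins the ring to the central stalk, had 85.1, 109, 116 and 98.0 CPM in infants against 78.8, 81.7 and 88.1 CPM in adults. Infant 1 lay within the adult range and the others above it, and the log2 fold change was 0.30 (SE 0.13, edgeR adjusted p = 0.373), or 0.27 without infant 2. Atp6v0c, the c ring subunit, had 479.5, 394, 617 and 434 CPM in infants against 454, 458 and 513 CPM in adults. The groups overlapped, 80.5% of its reads mapped to more than 1 place, and its log2 fold change of 0.02 turned to -0.06 with unique reads.

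In V1, Atp6v1c1, a stator subunit, had 140.1, 216, 154 and 149 CPM in infants against 135, 127 and 124 CPM in adults. The groups did not overlap, and the log2 fold change was 0.36 (SE 0.16, edgeR adjusted p = 0.376), or 0.20 without infant 2. Atp6v1d, the central stalk, had 134, 219.8, 162 and 151 CPM in infants against 136, 109 and 134 CPM in adults, with infant 1 within the adult range and the other infants above it. Its log2 fold change was 0.40 (SE 0.18, edgeR adjusted p = 0.365), or 0.24 without infant 2. The catalytic head pairs subunit A with subunit B. Atp6v1b2, the B subunit, had 340.5, 648, 403 and 382 CPM in infants against 377, 317 and 348 CPM in adults, while Atp6v1a, the A subunit, had 119.9, 73.4, 109.6 and 102 CPM in infants against 112, 104 and 105 CPM in adults. In infant 2 the B subunit was the highest and the A subunit the lowest of all 7 libraries. Per length, the B to A ratio was 10.1 in infant 2, 3.24 to 4.27 in infants 1, 3 and 4, and 3.48 to 3.83 in adults. Atp6v1e1, a peripheral stalk subunit, had 146 to 172 CPM in infants and 144 to 154 CPM in adults. Atp6v1h, which regulates the motor, had 111, 82.4, 111 and 113 CPM in infants against 109.7, 112 and 110.1 CPM in adults, so that infant 2 alone stood off.

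**Figure D3:**
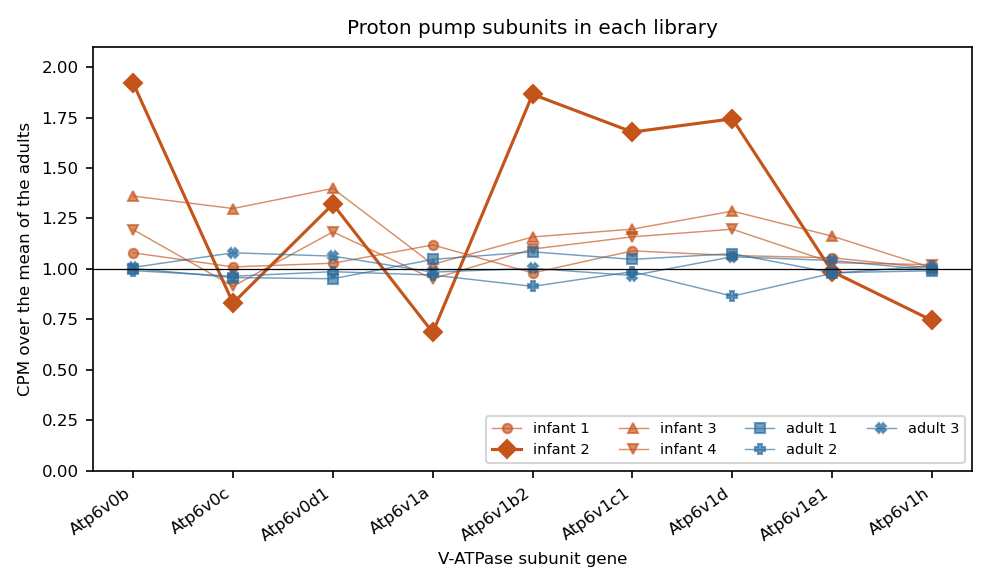
CPM of each V-ATPase subunit gene over the mean of the 3 adults (vertical), with 1 line per library, infants in orange and adults in blue. Infant 2, the thick line, had Atp6v0b and Atp6v1b2 at 1.92 and 1.87 times the adult mean and Atp6v1a at 0.685 times, while infants 1, 3 and 4 lay between 0.914 and 1.40 times.

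Counted over all 38 genes, infant 2 was the highest of the 7 libraries for 9 and the lowest for 13. It was thus at an extreme for 57.9% of these genes and for 57.7% of all tested genes, so its departure was as common outside the lysosome as within it. Its highest values were in Ctsc, Ctsb, Ctsz, Ctsh, Lgmn and 4 pump subunits. Its lowest were in Ifi30, 3 hydrolases or cofactors, 4 membrane or sterol proteins, 2 transcription factors and 3 pump subunits, with the pump thus at both ends. Atp6v0b and Ifi30, both with a CACGTG core shown above, stood at opposite ends, a pair picked from the extremes of this library. Ifi30 also holds the longer TCACGTGA and Atp6v0b does not. The median SD of log2 CPM over the 38 genes was 0.28 in infants, 0.18 in infants without infant 2 and 0.13 in adults, against 0.31, 0.21 and 0.17 for all tested genes. Malat1 was high in this library and Neat1 was not, at the levels given above. Intronic reads were 5.37% of gene reads in infant 2, and ran from 4.45% in infant 3 to 6.36% in adult 2. The part of nuclear RNA in these values was not tested.

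**Figure D4:**
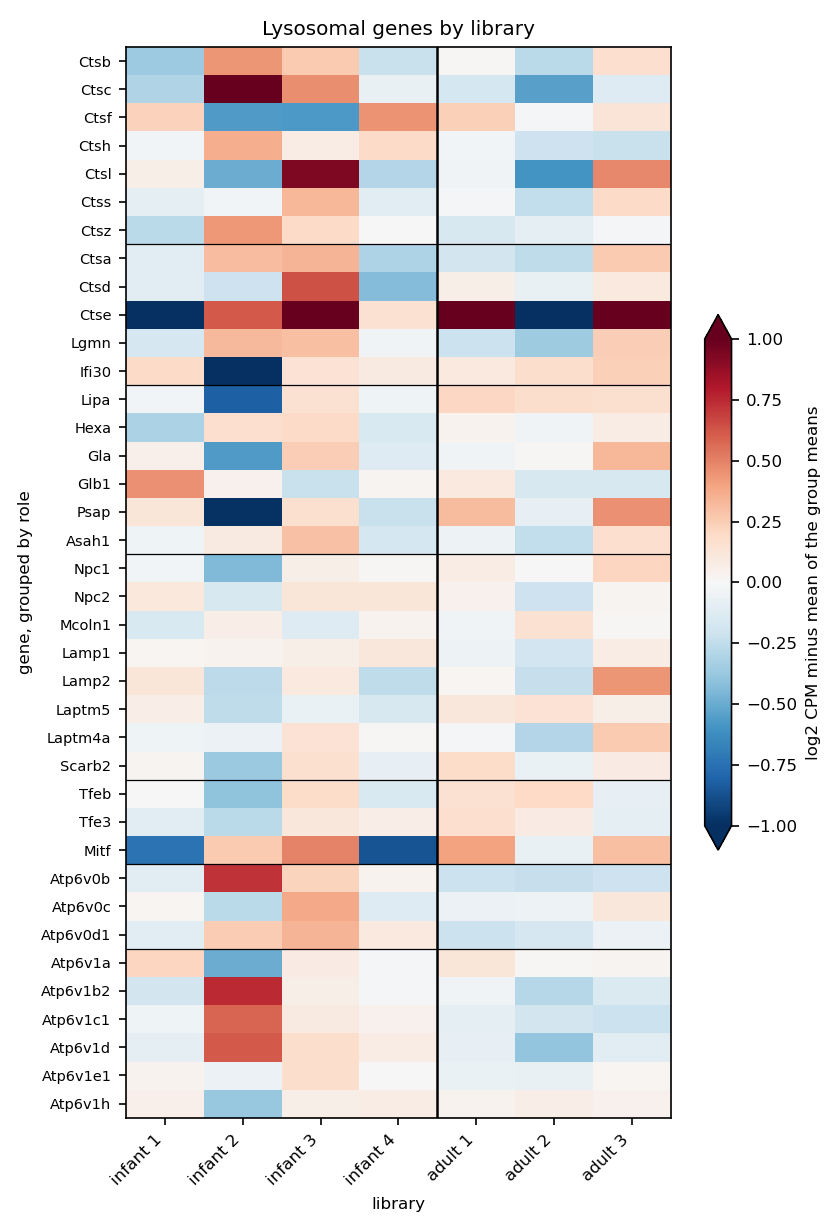
Log2 CPM of each gene (rows, grouped by role) in each library (columns, infants left of the line and adults right), minus the mean of the infant and adult means, with colours capped at 1 either way. Infant 2 shows both strong reds (Ctsc 1.04, Atp6v1b2 0.75) and strong blues (Psap -0.98, Ifi30 -1.10), while infant 3 is mostly red and adult 2 mostly blue.

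Infant 3 and adult 2 also stood off as libraries. Infant 3 was the highest of the 7 for 11 of the 38 genes (28.9%, against 12.3% of all tested genes) and the lowest for 2. Adult 2 was the lowest for 13 (34.2%, against 12.7%) and the highest for 3. It was also the only adult library with Xist reads, and the part of sex in its values was not tested. The mean centred log2 CPM of the 38 genes was 0.23 in infant 3 and between -0.07 and -0.03 in the other infants, and was 0.04, -0.22 and 0.12 in adults 1 to 3. The genes highest in infant 3 included Ctsd, Ctsl, Ctss, Ctse, Ctsa and Asah1, and those lowest in adult 2 included Ctsl, Ctss, Ctse, Ctsc, Lgmn and Asah1. Macrophage markers differed between the same libraries: their sum was 698, 915, 1541 and 554 CPM in infants 1 to 4 and 933, 591 and 1196 CPM in adults 1 to 3. C1qb, a complement gene of macrophages, had 223, 281, 585 and 165 CPM in infants against 334, 169 and 467 CPM in adults, and Fcgr1, which encodes the gated CD64, had 10.5, 11.1, 31.6 and 8.63 CPM in infants against 15.3, 9.74 and 23.2 CPM in adults. Infant 3 was the highest infant for 7 of the 8 markers, all but Cd68, and adult 3 the highest adult for 7 of the 8, all but Adgre1, in which it was the lowest of the 7 libraries. Both were also the highest of their groups for Ctsl, Ctse, Ctsd and Ctss, and the part of macrophage RNA in the cathepsin values was not tested. Cd68, 1 of the 8 markers, itself encodes a lysosomal membrane protein. Without infant 3 the log2 fold changes of Ctsl, Ctss, Ctsd and Ctse were -0.24, -0.06, -0.27 and -0.57, and without adult 2 they were -0.09, -0.05, -0.05 and -0.35, so no direction with age is given for these 4.

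**Figure D5:**
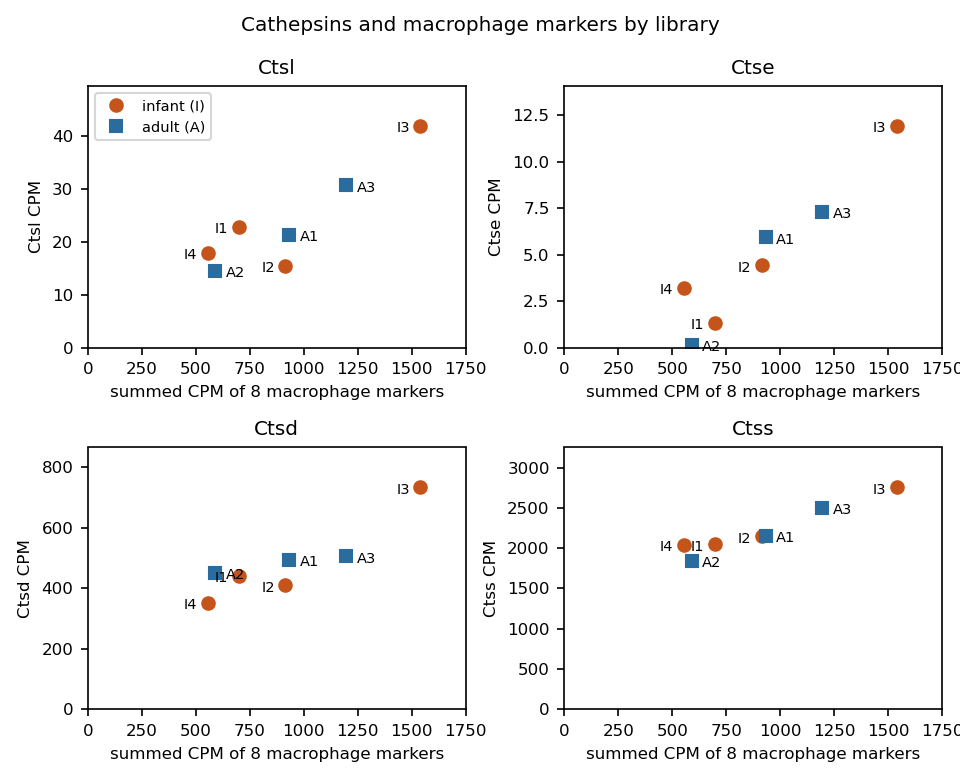
CPM of 4 cathepsin genes (vertical, from 0) against the summed CPM of 8 macrophage markers (horizontal) in each library, infants as circles and adults as squares, with the library's initial and number beside each point. Infant 3, at 1541 CPM of markers, was the highest for all 4 genes, and adult 3, at 1196 CPM, was next; the 4 genes were chosen after their values were seen.

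The rest of the lysosome was read from 6 lists with 132 further genes, of which 118 were tested. Genes given below with values were among those with the smallest p of their list, which favours groups that do not overlap. Over all tested genes, infants lay wholly above adults for 7.97% and wholly below for 7.58%. None of the 118 passed by edgeR. An unadjusted p under 0.05 was found for 16 (13.6%, against 13.3% of all tested genes), 9 higher and 7 lower in infants. By DESeq2 2 passed, 1.68% of those it gave an adjusted p, near the 1.47% of all genes. These 2 were in the list on nutrient sensing and the control of Tfeb, whose 19 tested genes had a median log2 fold change of 0.17. Rragd, a Rag GTPase that governs whether Tfeb enters the nucleus, had 1.33, 1.31, 1.60 and 2.13 CPM in infants against 3.46, 4.28 and 7.06 CPM in adults. Zkscan3, a repressor of lysosomal genes in human cells, had 56.7, 57.6, 59.9 and 59.7 CPM in infants against 75.4, 80.4 and 78.5 CPM in adults. The groups did not overlap for either, with log2 fold changes of -1.63 (SE 0.34, edgeR adjusted p = 0.197, DESeq2 adjusted p = 0.00396) and -0.42 (SE 0.11, edgeR adjusted p = 0.246, DESeq2 adjusted p = 0.0254). In the same list Lamtor5 and Lamtor3, of the complex that anchors the Rag GTPases to the lysosome, had log2 fold changes of 0.36 (SE 0.13) and 0.33 (SE 0.13).

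Among 17 tested further V-ATPase genes the median log2 fold change was 0.13, with 12 above 0. Ccdc115, an assembly factor, had 61.6, 69.9, 72.7 and 55.5 CPM in infants against 49.9, 50.5 and 53.6 CPM in adults, a log2 fold change of 0.34 (SE 0.13, edgeR adjusted p = 0.332). Every infant lay above every adult. Atp6v0a1, an isoform of the subunit that anchors the pump, went the other way, with 119, 62.8, 103 and 115 CPM in infants against 139, 127 and 144 CPM in adults, a log2 fold change of -0.45 (SE 0.20, edgeR adjusted p = 0.368). Atp6v1b1 and Atp6v0a4, the kidney isoforms, had 0 reads in all 7 libraries.

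The 38 further hydrolases had a median log2 fold change of -0.03 and 4 had an unadjusted p under 0.05. Pld4, an endolysosomal nuclease, had 446, 634, 615 and 413 CPM in infants against 375, 376 and 371 CPM in adults, a log2 fold change of 0.49 (SE 0.17, edgeR adjusted p = 0.312), with every infant above every adult. Ids, the iduronate sulfatase, had 52.3, 22.5, 44.7 and 40.5 CPM in infants against 53.6, 62.1 and 62.8 CPM in adults. Among 11 further proteases and inhibitors, with a median of -0.07, Cst7, an inhibitor of cathepsin C, had 10.6, 7.73, 13.3 and 6.34 CPM in infants against 14.5, 14.9 and 18.4 CPM in adults, a log2 fold change of -0.75 (SE 0.25, edgeR adjusted p = 0.311). All adults lay above all infants for Cst7 and Ids, as for 7.58% of all tested genes, and both were picked by p. The 23 membrane proteins and transporters had a median of -0.03 with none at an unadjusted p under 0.05, and the 10 genes of enzyme delivery a median of 0.01. Among these 10, Gnptab, which makes the mannose phosphate tag, had 45.5, 31.7, 43.3 and 40.4 CPM in infants against 62.3, 48.8 and 50.2 CPM in adults, with every adult above every infant. Its log2 fold change was -0.42 (SE 0.16, edgeR adjusted p = 0.329).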

How the data were processed

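The deposited files, 1 for each library, hold whole-number counts of exon, exon-exon and intron reads per gene, unique and total. They also hold the deposited RPKM (per exon length and library size) and TPM, which summed to 1000000 in each. The submitters' processing notes name mm10 and TopHat2 (2.0.14, 2.1.0), beside TopHat and, from the Cufflinks suite, Cuffnorm 2.2.1, Cuffdiff 2.2.1 and Cufflinks 2.2.1.0, with no role. Neither the program that made these tables nor its strand setting is named in the labels or headers. Reads that map to several places were 8.93% to 9.45% of the exon reads.

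Total exon counts were filtered with filterByExpr, scaled by TMM and tested with edgeR 4.0.16 (glmQLFit, robust, and glmQLFTest) in R 4.3.3, infant over adult, with Benjamini-Hochberg adjustment over 12261 genes. The functions were tested on simulated data. SE is the log2 fold change over the square root of F. Tested genes held 99.9% of exon reads. At these depths 3 reads are 0.134 to 0.166 CPM, before TMM scaling, for counting error only. The alternatives used DESeq2 1.42.0, limma 3.58.1, other scaling, filters and read types, the authors' RPKM as log2(RPKM + 1) or log2(RPKM + 0.1), a replicate block, and leaving out each library.

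The 38 genes and the lists were chosen with earlier results of these data known. Every listed gene could be named; of other lists, at most 4 genes with the smallest p. Itgam is the first of 2 entries. Sequences are from RefSeq.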

Additional observations from a re-analysis of the deposited data

Results flagged for a closer look

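Among the 4 infants, 1 library stood off from the rest by Dixon's ratio in 4 of 39 measures (the CPM of the 38 genes and their summed TPM), where chance flags about 1 in 20, or 1.95. Of these, 3 were in infant 2: Ifi30 at 229 CPM against 524 to 563 CPM in the other infants, Npc2 at 467 CPM against 563 to 569.9 CPM, and Atp6v1h at 82.4 CPM against 111 to 113 CPM. The other was Ctss in infant 3, at 2756 CPM against 2039 to 2147 CPM in the other infants. The 3 adults were too few for this check.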

How the results depend on the processing

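Over 20 alternatives, none of the 38 genes passed an adjusted p of 0.05, and the lowest adjusted p of any of them was 0.192. Their median log2 fold change, 0.04, ran from -0.06 (without infant 3) to 0.12 (without adult 3), and from -0.0018 to 0.06 without leaving out a library. The genes past the threshold, 2 of all genes as reported, numbered 183 by DESeq2, 8 with no filter on low counts, 1 under each RPKM setting and 2 to 10 when leaving out 1 library (10 without adult 1). The 5 genes with an unadjusted p under 0.05 numbered 3 with no scaling factors, no filter, limma-voom or unique reads, 2 with a filter of 5 CPM in 3 libraries, and 0 to 6 when leaving out 1 library. Without adult 1, adult 2, adult 3 or infant 3 there were 0, and without infant 2 or infant 4 there were 1 and 2. The share of all tested genes at that p is not given here for alternatives other than DESeq2, the replicate block included. These counts thus cannot tell a loss in these genes from a loss in all genes. The other lysosomal genes past the threshold numbered 2 by DESeq2 and 0 otherwise.

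The replicate numbers were not used to pair the libraries in the main fit. Same-numbered infants and adults had correlations of their deviations of 0.03, -0.03 and 0.10, and unlike-numbered ones of -0.19 to 0.15. So few values cannot show whether the numbers pair the libraries. With the replicate block, on replicates 1 to 3 of each group, 1 gene passed, none of the 38 did, and 3 of these had an unadjusted p under 0.05.

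The sign held for 26 of the 38 genes in every alternative. It turned for 3 by a setting. Ctsd, at 0.0018, was -0.0061 with upper-quartile factors, -0.038 with no scaling factors, -0.022 with no filter, -0.0100 with the 5 CPM filter, -0.00068 by DESeq2, -0.055 by limma-voom, -0.026 with unique reads, and -0.084 under each of the 3 RPKM settings. Atp6v0c, at 0.02, was -0.018 with no scaling factors, -0.0037 with no filter, -0.056 with unique reads and -0.028 under each RPKM setting. Laptm4a was -0.021 with no scaling factors and -0.0052 with no filter. Leaving out 1 library turned the sign of 12, whose log2 fold changes then ran as follows: Ctsb -0.063 to 0.21, Ctsl -0.24 to 0.45, Ctss -0.060 to 0.17, Ctsd -0.27 to 0.12, Ctse -0.57 to 0.77, Hexa -0.12 to 0.047, Asah1 -0.014 to 0.19, Lamp2 -0.31 to 0.036, Laptm4a -0.11 to 0.16, Atp6v0c -0.12 to 0.10, Atp6v1a -0.18 to 0.041, Atp6v1h -0.13 to 0.012. The cause was not tested. Low counts limit Ctse, Mitf and Ctsf, whose SEs were 0.90, 0.51 and 0.37.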
